A study of Homo sapiens with 6 samples.

Results

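The genes described here are those of the collagen chains and of the integrins, the receptors that hold cells to collagen and other matrix proteins. They were chosen by symbol from the table of read counts, as COL with a type and a chain number or as ITGA or ITGB with its subunit, without the platelet pair ITGA2B and ITGB3 and without antisense names. The rule took 73 of 52088 genes: 44 collagen chains, 24 integrin subunits and 5 genes that carry an integrin name without encoding a subunit. The libraries came from K562, a human erythroleukaemia line that grows in suspension. Of the 6 libraries, 2 were from PAX6_Ta KO cells, in which the ultra-conserved element (UCE) PAX6_Tarzan was cut out with Cas9 and paired guide RNAs, 2 were from PBX3_Cl KO cells, in which the UCE PBX3_Claudia was cut out in the same way, and 2 were from Control cells of genotype WT. Per the labels, knockout cells were transfected, selected with puromycin and grown from single clones that were checked by PCR and Sanger sequencing, and the labels do not say whether Control went through any of these steps. All groups were grown in the same serum-containing medium. Loss of an element, selection and differences between clones therefore cannot be told apart in a comparison with Control. Counts per gene do not check whether an element was lost.

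The 6 libraries held 45912044 to 60908470 counts, and 20746 genes had enough counts to be tested. Levels are given as CPM, counts scaled to a common library size after TMM correction. Every difference is a log2 fold change from a single edgeR quasi-likelihood fit, unless another setting is named. Its standard error (SE) was worked out as the absolute log2 fold change divided by the square root of the F statistic. Genes with a Benjamini-Hochberg adjusted p below 0.05 over all tested genes are said to be called. No source used here says that the replicates were separate cultures, so the spread behind each p-value is that of these libraries alone and may be technical. In bulk RNA a smaller share of expressing cells and less RNA per cell cannot be told apart. All 11 erythroid markers had counts in every library and summed to 9500 to 11200 CPM in PAX6_Ta KO, 8080 to 9200 CPM in PBX3_Cl KO and 5570 to 6440 CPM in Control. Megakaryocyte markers (8 genes) summed to 8.77 to 12.4 CPM in PAX6_Ta KO, 11.7 to 13.9 CPM in PBX3_Cl KO and 23.3 to 89.3 CPM in Control, where replicate 1 had the higher sum. Fibroblast and mesenchymal markers (8 genes) summed to 1.65 to 1.85, 1.02 to 1.14 and 1.28 to 1.76 CPM in PAX6_Ta KO, PBX3_Cl KO and Control, with FAP and LUM at 0 counts in every library. Of these, POSTN, the matrix protein periostin, had 23 and 20 counts in PAX6_Ta KO, 0 and 0 in PBX3_Cl KO and 0 and 2 in Control, and edgeR called it higher in PAX6_Ta KO than in Control (adjusted p = 0.0104, not called without Control replicate 1) and than in PBX3_Cl KO (adjusted p = 0.00506). Epithelial markers (8 genes) summed to 1300 to 2030 CPM in PAX6_Ta KO, 652 to 1120 CPM in PBX3_Cl KO and 722 to 958 CPM in Control. Of the 5 tested, edgeR called 2 higher (40%) and 1 lower (20%) in PAX6_Ta KO than in Control. Of all tested genes, 7.21% and 4.21% were called so. The part of such shifts in the results was not tested.

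Collagens are secreted as triple helices of chains from the same type. Fibrillar chains form the tensile fibres of connective tissue, type IV forms the sheet of basement membranes, and fibril-associated and multiplexin collagens join fibres and basement membranes to their surroundings. An integrin is a pair of an α and a β subunit: α5, αV and α8 bind the RGD motif of fibronectin and vitronectin, α3, α6 and α7 bind laminins, α1, α2, α10 and α11 bind collagens, and the β2 partners αL, αM, αX and αD are found on leukocytes. Blood cells use integrins to hold to the marrow and to vessel walls, while the main makers of fibrillar collagen are fibroblasts and bone cells.

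Among the 55 collagen and integrin genes that were tested, 10 were higher in PAX6_Ta KO than in Control (18.2%) and 3 were lower (5.45%), where 7.21% and 4.21% of all tested genes were called higher and lower. PBX3_Cl KO had 11 genes above Control (20%) and 4 below it (7.27%), against 6.28% and 2.69% of all tested genes. Over the 55 genes PAX6_Ta KO had a median log2 fold change of 0.39, against -0.02 over all tested genes, and PBX3_Cl KO had one of 0.05, against -0.01. Both knockouts share the same Control libraries. By call, 4 genes were higher in both knockouts (COL14A1, COL15A1, COL6A3 and ITGA3), 2 were lower in both (COL1A2 and COL19A1), COL4A2 was higher in PAX6_Ta KO and lower in PBX3_Cl KO, COL4A5 was lower in PAX6_Ta KO and higher in PBX3_Cl KO, and 35 were called in neither. The same overlaps were not counted over all tested genes, so whether they are particular to this set was not tested. Directly between the knockouts, 8 genes were higher on the PAX6_Ta KO side (14.5%) and 4 were lower (7.27%), where 5.26% and 6.71% of all tested genes were called. With the replicate number as a block these counts were 14 and 7, and the shares of all tested genes were 8.06% and 10.6%. In PBX3_Cl KO against Control, the 11 higher genes became 7 without Control replicate 1, where 4.69% of all tested genes were higher, and the 4 lower genes became 2 without PBX3_Cl KO replicate 1, where 3.3% were lower.

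**Figure D1:**
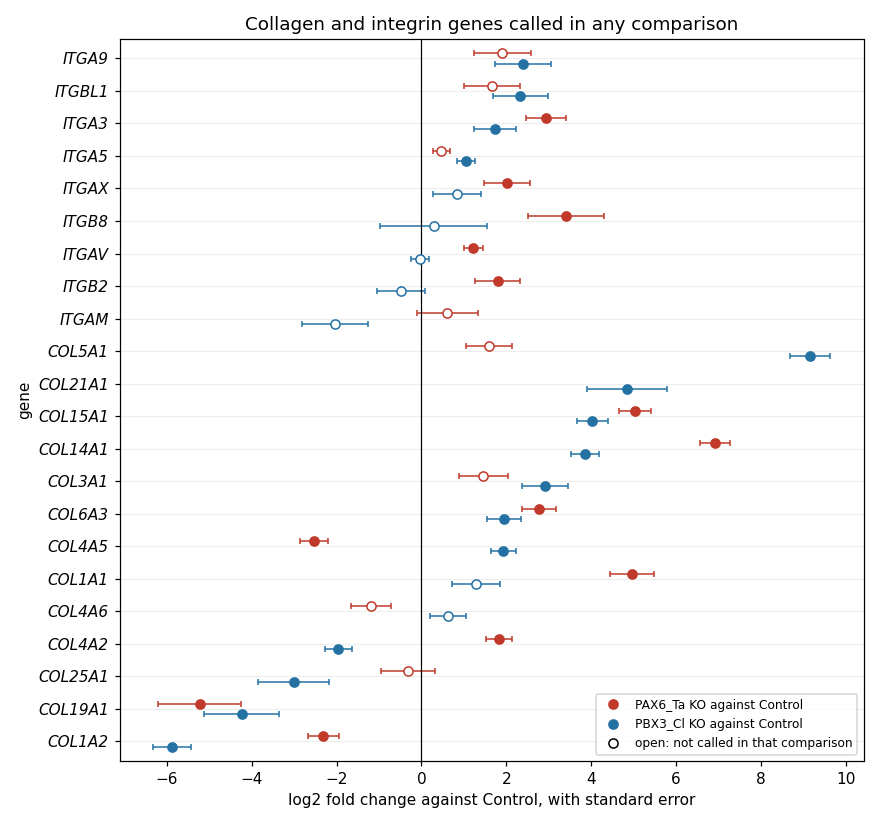
Log2 fold changes against Control (x axis) of the 22 collagen and integrin genes called in any comparison (y axis), with standard errors, for PAX6_Ta KO in red and PBX3_Cl KO in blue. Filled points were called and open points were not, and no PAX6_Ta KO point is drawn for COL21A1, which had 0 counts there. COL5A1 lies at 9.15 in PBX3_Cl KO, and COL4A2 and COL4A5 have filled points on opposite sides of 0.

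Among the fibrillar collagens (11 genes, 6 tested), the type I chains moved in opposite directions in PAX6_Ta KO. COL1A1 (17q, chr17:48261462-48278993, GRCh37), the α1 chain, had 4.66 and 3.93 CPM in PAX6_Ta KO, 0.181 and 0.48 CPM in PBX3_Cl KO and 0.133 and 0.139 CPM in Control. Both PAX6_Ta KO libraries were far above the other 4. COL1A1 was higher in PAX6_Ta KO than in Control by a log2 fold change of 4.96 (SE 0.52, adjusted p = 4.89e-05) and higher than in PBX3_Cl KO by 3.68 (SE 0.47, adjusted p = 0.000254), and the change of 1.27 (SE 0.56) in PBX3_Cl KO against Control was not called. The fibroblast marker POSTN had its higher counts in the same libraries, and its part in this result was not tested. POSTN was the only 1 of the 3 tested fibroblast and mesenchymal markers above 0 in PAX6_Ta KO against Control. Their median log2 fold change was -0.04. COL1A2 (7q, chr7:94024207-94060539), the α2 chain, had 17.8 and 18.8 CPM in PAX6_Ta KO, 1.38 and 1.7 CPM in PBX3_Cl KO and 48.7 and 133 CPM in Control. The 3 groups did not overlap, with Control highest although its replicates were far apart. COL1A2 fell in both knockouts, with log2 fold changes of -2.31 in PAX6_Ta KO (SE 0.36, adjusted p = 0.00108) and -5.87 in PBX3_Cl KO (SE 0.44, adjusted p = 4.92e-06). Within 1 Mb of COL1A2, 8 neighbouring genes were tested, and PAX6_Ta KO had a median log2 fold change of -0.22 over them and PBX3_Cl KO one of 0.73, which in PBX3_Cl KO is opposite in sign to COL1A2 itself.

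Scaled to transcript length, COL1A1 and COL1A2 stood at 0.727 and 3.61 CPM per kb in PAX6_Ta KO, 0.0559 and 0.304 CPM per kb in PBX3_Cl KO and 0.023 and 17.9 CPM per kb in Control. The α2 chain thus had the higher level per length in every group, although type I collagen holds more α1 than α2 chains.

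COL5A1 (9q, chr9:137533649-137736689), the α1 chain of the type V collagen that starts and regulates fibrils, gave the largest change of any collagen or integrin gene. Its counts were 22 and 22 in PAX6_Ta KO, 2622 and 4886 in PBX3_Cl KO and 13 and 3 in Control, which as levels were 0.458 and 0.418, 59.5 and 107, and 0.217 and 0.0594 CPM. Only the PBX3_Cl KO libraries were above 1 CPM. COL5A1 rose in PBX3_Cl KO over Control by a log2 fold change of 9.15 (SE 0.46, 569-fold, adjusted p = 4.37e-07) and its log2 fold change in PAX6_Ta KO against PBX3_Cl KO was -7.56 (SE 0.41, adjusted p = 2.9e-07). The change of 1.59 (SE 0.54, adjusted p = 0.0851) in PAX6_Ta KO against Control was not called by edgeR, and it was called by DESeq2 (1.63, adjusted p = 0.0196), without Control replicate 1 (2.83) or either PBX3_Cl KO replicate (1.59 each) and with no filter on low counts (1.60). Of 15 tested neighbours within 1 Mb, 2 were higher in PBX3_Cl KO, with a median log2 fold change of 0.13. COL5A2, which encodes the α2 chain of type V, had 44 and 28 counts in PBX3_Cl KO and 47 and 28 in Control, a log2 fold change of 0.26 that was not called.

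The 250 bases before the RefSeq start of COL5A1 are shown because this gene went to the highest level of the fibrillar collagens in PBX3_Cl KO. They lie at chr9:137533399-137533648 on the forward strand, placed on GRCh37 by exact match of the RefSeq sequence (GRCh38.p14), and have 74% GC, where the median of 34943 RefSeq promoters is 58%. Capitals mark the GC box GGGCGG read on either strand.
COL5A1: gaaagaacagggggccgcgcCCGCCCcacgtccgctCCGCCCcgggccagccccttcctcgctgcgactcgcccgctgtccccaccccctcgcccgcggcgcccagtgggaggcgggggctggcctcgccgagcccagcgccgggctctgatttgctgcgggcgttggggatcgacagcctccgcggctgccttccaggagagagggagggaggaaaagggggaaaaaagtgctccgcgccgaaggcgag
Both matches are on the reverse strand, and 42.5% of promoter windows of this length hold at least 1. Neither CCAAT nor TATAAA was found on either strand of these bases.

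COL3A1 (2q, chr2:189839099-189877472), the only chain of type III collagen, had 22 and 16 counts in PAX6_Ta KO, 55 and 39 in PBX3_Cl KO and 6 and 9 in Control. The 3 groups did not overlap. It rose in PBX3_Cl KO over Control by a log2 fold change of 2.91 (SE 0.55, adjusted p = 0.00486), and the 1.45 of PAX6_Ta KO was not called. The difference between the knockouts, -1.46, was called only with the replicate block (-1.46, adjusted p = 0.0388 from edgeR). COL5A2 lies 19.2 kb from COL3A1 and was not called in any comparison.

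**Figure D2:**
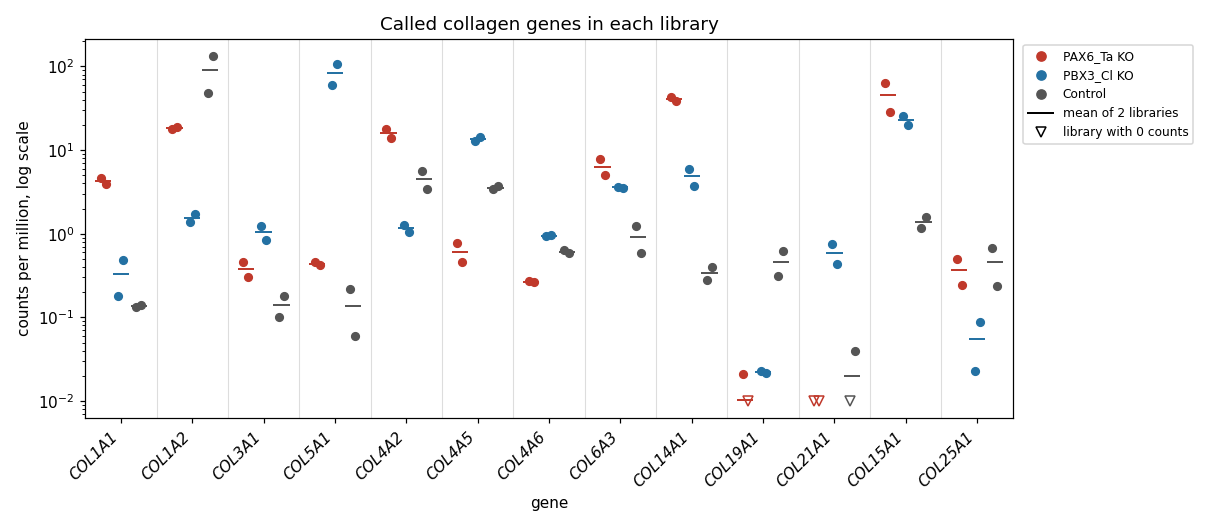
CPM on a log scale (y axis) of the 13 called collagen genes (x axis) in each library, with PAX6_Ta KO in red, PBX3_Cl KO in blue and Control in grey. Points are libraries, lines are means of 2 and open triangles are libraries with 0 counts, drawn at the foot of the plot. COL5A1 reaches 59.5 and 107 CPM in PBX3_Cl KO alone, and COL1A2 is highest in Control at 48.7 and 133 CPM.

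Type IV chains of basement membranes are encoded by 3 pairs of genes that lie head to head, and 5 of the 6 genes were tested. COL4A2 (13q, chr13:110958159-111165556), the α2 chain, had 18.1 and 13.9 CPM in PAX6_Ta KO, 1.27 and 1.05 CPM in PBX3_Cl KO and 5.58 and 3.41 CPM in Control. PAX6_Ta KO was above and PBX3_Cl KO below Control in both libraries. COL4A2 was higher in PAX6_Ta KO than in Control by a log2 fold change of 1.83 (SE 0.30, adjusted p = 0.00166) and fell by 1.96 in PBX3_Cl KO (SE 0.33, adjusted p = 0.00202), and the difference between the knockouts was 3.78 (SE 0.34, adjusted p = 1.44e-05). COL4A1, its partner chain and neighbour, named here after its values were seen, had 1 and 0 counts in PAX6_Ta KO and 0 in each of the other 4 libraries. A count of 0 in a group allows up to 3 counts. Among the 10 tested genes within 1 Mb of COL4A2, PAX6_Ta KO had a median log2 fold change of -0.32 and PBX3_Cl KO one of -0.23.

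COL4A5 (Xq, chrX:107683068-107940775), the α5 chain, went the other way. It had 0.77 and 0.456 CPM in PAX6_Ta KO, 12.8 and 14.2 CPM in PBX3_Cl KO and 3.43 and 3.68 CPM in Control, so PBX3_Cl KO was above and PAX6_Ta KO below Control. Its log2 fold change was -2.54 in PAX6_Ta KO (SE 0.33, adjusted p = 0.000283) and 1.93 in PBX3_Cl KO (SE 0.30, adjusted p = 0.00121), and -4.46 in PAX6_Ta KO against PBX3_Cl KO (SE 0.35, adjusted p = 4.69e-06). COL4A6 (Xq, chrX:107398837-107682727), the α6 chain on the other side of the shared start, had 13 and 14 counts in PAX6_Ta KO, 41 and 44 in PBX3_Cl KO and 38 and 30 in Control. PAX6_Ta KO was lowest in both libraries. Neither comparison of COL4A6 with Control was called (-1.19 and 0.62), and the difference between the knockouts was called at -1.81 (SE 0.46, adjusted p = 0.0224). Without PAX6_Ta KO replicate 1 or replicate 2 that call was lost, at -1.83 and -1.79. COL4A3 and COL4A4, the third pair, had 12 to 45 counts a library and were not called in any comparison.

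The bases between the paired type IV genes are printed because chains that share them had such different levels. Between the RefSeq starts of COL4A1 and COL4A2 lie 126 bases at chr13:110959505-110959630, shown on the strand of COL4A2, which in GENCODE also fall in an intron of a longer COL4A2 transcript and, at their end, in the first exon of other COL4A2 transcripts. Between the starts of COL4A6 and COL4A5 lie 379 bases, of which the 250 next to COL4A5 are shown, at chrX:107682818-107683067 on the forward strand. Positions are on GRCh37 by exact match of the RefSeq sequence (GRCh38.p14), and capitals mark CCAAT and GGGCGG on either strand.
COL4A1 and COL4A2: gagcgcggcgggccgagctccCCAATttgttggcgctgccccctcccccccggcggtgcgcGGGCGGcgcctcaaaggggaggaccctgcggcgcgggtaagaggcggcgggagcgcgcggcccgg
COL4A5: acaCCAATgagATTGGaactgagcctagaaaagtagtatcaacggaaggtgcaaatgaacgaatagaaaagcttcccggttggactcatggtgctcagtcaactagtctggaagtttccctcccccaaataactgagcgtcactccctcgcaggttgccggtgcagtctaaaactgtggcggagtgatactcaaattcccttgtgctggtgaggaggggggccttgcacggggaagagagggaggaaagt
The COL4A1 and COL4A2 window has 80.2% GC and 1 match each of CCAAT and GGGCGG, which 21.1% and 34.5% of promoter windows of 126 bases hold. The COL4A5 window has 51.2% GC and 2 matches of CCAAT, 1 on each strand, which 32% of windows of 250 bases hold at least once. TATAAA was found in neither window, and GGGCGG was not found in that of COL4A5. A match is a description of the letters only. RefSeq promoters were found for 52 of the 73 genes, and COL1A1, COL1A2, COL3A1 and COL14A1 were not among them.

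**Figure D3:**
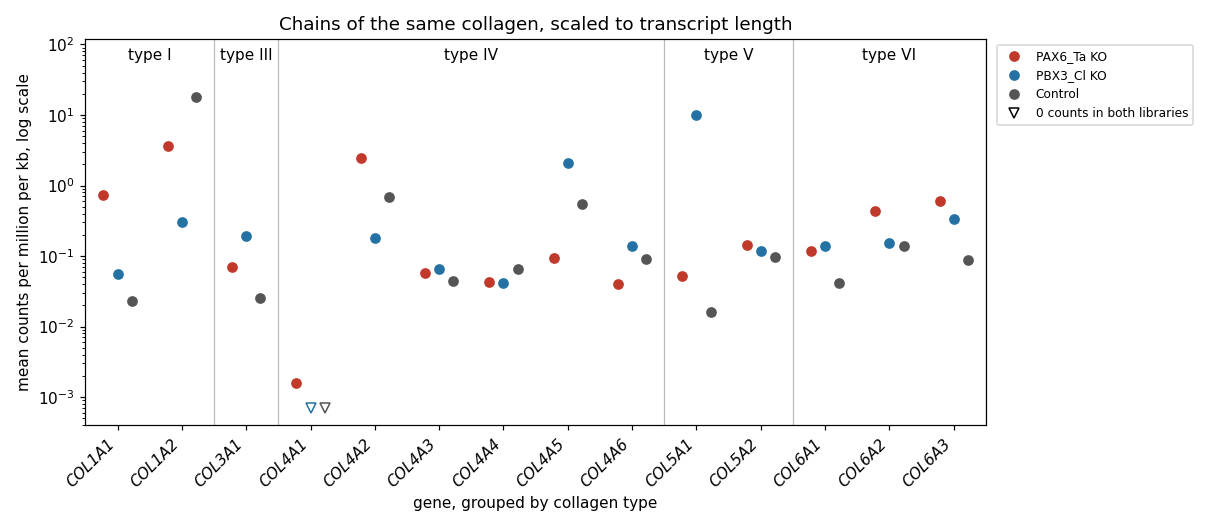
Mean CPM per kb of transcript on a log scale (y axis) of chains of collagen types I, III, IV, V and VI (x axis), with PAX6_Ta KO in red, PBX3_Cl KO in blue and Control in grey. Triangles mark groups with 0 counts in both libraries. COL4A2 stands at 2.48, 0.18 and 0.697 and COL4A5 at 0.0939, 2.07 and 0.545 CPM per kb in PAX6_Ta KO, PBX3_Cl KO and Control.

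Of the microfibril and anchoring collagens (7 genes, 6 tested), COL6A3 was called in both knockouts. COL6A3 (2q, chr2:238232646-238322971), the long α3 chain of the beaded filaments of type VI, had 7.72 and 4.98 CPM in PAX6_Ta KO, 3.63 and 3.54 CPM in PBX3_Cl KO and 1.25 and 0.594 CPM in Control. Control was lowest and no group overlapped another. It was higher by log2 fold changes of 2.77 (SE 0.40, adjusted p = 0.000644) in PAX6_Ta KO and 1.95 (SE 0.40, adjusted p = 0.00798) in PBX3_Cl KO. The other chains that build type VI microfibrils with it had fewer counts, COL6A1 9 to 36 and COL6A2 18 to 95 a library. COL6A2 was just short of a call in PAX6_Ta KO, at 1.61 with an adjusted p of 0.0523, and was called there under 8 alternatives, among them the replicate block (1.55, adjusted p = 0.0267 from edgeR) and DESeq2 (1.64, adjusted p = 0.0330). Between the knockouts it was not called, and 5 alternatives gave a call, among them the block (edgeR 1.47, adjusted p = 0.0321). For COL6A6, 7 alternatives gave a call there, among them the block (edgeR 2.02, adjusted p = 0.0329). COL6A5 (3q, chr3:130064359-130203690), a further type VI chain, had 44.2 and 40.8 CPM in PAX6_Ta KO, 41.2 and 41.3 CPM in PBX3_Cl KO and 42.1 and 39.4 CPM in Control. These 6 values overlapped between groups, with log2 fold changes of 0.06 and 0.02 (SE 0.18 each). COL7A1 (3p, chr3:48601506-48632762), the anchoring fibril of skin, had 1.2 to 3.95 CPM and was not called, although with PBX3_Cl KO replicate 2 left out the difference between the knockouts passed (1.48, adjusted p = 0.0337 from edgeR).

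The fibril-associated collagens (10 genes, 7 tested) held the strongest rise in PAX6_Ta KO. COL14A1 (8q, chr8:121072019-121385812), which binds to type I fibrils, had 2079 and 2030 counts in PAX6_Ta KO, 265 and 172 in PBX3_Cl KO and 17 and 20 in Control. In CPM these were 43.3 and 38.6, 6.01 and 3.75, and 0.283 and 0.396, with no overlap between groups. COL14A1 was higher than in Control by log2 fold changes of 6.91 (SE 0.35, 121-fold, adjusted p = 1.91e-07) in PAX6_Ta KO and 3.85 (SE 0.33, 14.4-fold, adjusted p = 1.27e-05) in PBX3_Cl KO, and PAX6_Ta KO exceeded PBX3_Cl KO by 3.07 (SE 0.27, adjusted p = 1.38e-05). The 4 tested neighbours within 1 Mb had median log2 fold changes of 0.23 in PAX6_Ta KO and -0.17 in PBX3_Cl KO.

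COL19A1 (6q, chr6:70576448-70922171), a collagen of basement membrane zones, had 1 and 0 counts in PAX6_Ta KO, 1 and 1 in PBX3_Cl KO and 19 and 31 in Control. Only Control had more than 1 count in a library. The ratio to Control was 0.022 in PAX6_Ta KO (exact 95% interval 0.000545 to 0.128, adjusted p = 0.00369 from edgeR) and 0.0492 in PBX3_Cl KO (0.0058 to 0.187, adjusted p = 0.00928 from edgeR). The call in PBX3_Cl KO was lost without Control replicate 2, PBX3_Cl KO replicate 1 or PBX3_Cl KO replicate 2, at log2 fold changes of -3.69, -4.29 and -4.20. COL21A1 (6p, chr6:55921388-56258892), a collagen of vessel walls, had 0 counts in both PAX6_Ta KO libraries, 33 and 20 in PBX3_Cl KO and 0 and 2 in Control. PBX3_Cl KO stood above the other groups, with a ratio of 32.6 to Control (8.59 to 276, adjusted p = 0.00689 from edgeR), a call that was lost without PBX3_Cl KO replicate 1 (log2 fold change 4.37). PAX6_Ta KO was at least 19.8-fold lower than PBX3_Cl KO, taking 3 counts over the group as the floor. Intervals and floors cover counting error only. The type IX chains COL9A1, COL9A2 and COL9A3, and COL16A1, had 0 to 108 counts a library and were not called in any comparison.

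Multiplexins lie next to basement membranes and release anti-angiogenic fragments. COL15A1 (9q, chr9:101705461-101833074) had 62.6 and 28.5 CPM in PAX6_Ta KO, 25.4 and 19.9 CPM in PBX3_Cl KO and 1.18 and 1.6 CPM in Control. Both knockouts were above Control in every library. It was higher by log2 fold changes of 5.03 (SE 0.38, 32.8-fold, adjusted p = 4.92e-06) in PAX6_Ta KO and 4.03 (SE 0.37, 16.3-fold, adjusted p = 2.05e-05) in PBX3_Cl KO, while the difference between the knockouts was not called, with an adjusted p of 0.0596. It was called by DESeq2 (1.03, adjusted p = 0.0254), with upper-quartile scaling (1.09), no filter on low counts (1.04) or only the compared groups in the fit (1.06), and without Control replicate 1 or 2 (1.00 each) or PAX6_Ta KO replicate 2 (1.47). Of its 21 tested neighbours within 1 Mb, 1 was higher in each knockout, and their medians were 0.20 and 0.09. COL18A1 (21q, chr21:46825080-46933634), whose fragment is endostatin, had the highest level per length of all collagens, at 46, 28.6 and 37.6 CPM per kb in PAX6_Ta KO, PBX3_Cl KO and Control. Its libraries had 252 and 245 CPM in PAX6_Ta KO, 103 and 206 CPM in PBX3_Cl KO and 244 and 163 CPM in Control. The groups overlapped, and COL18A1 was not called at 0.29 and -0.39 (SE 0.30 each). Without PBX3_Cl KO replicate 2 it was called lower in PBX3_Cl KO than in Control (-0.97, adjusted p = 0.0487 from edgeR) and differed between the knockouts (1.26, adjusted p = 0.0148), as it did when low counts were not filtered (0.71, adjusted p = 0.0276).

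Of the transmembrane collagens, 2 of 4 were tested. COL25A1 (4q, chr4:109729881-110223908), known from amyloid plaques and from motor nerve growth, had 24 and 13 counts in PAX6_Ta KO, 1 and 4 in PBX3_Cl KO and 41 and 12 in Control. PBX3_Cl KO was lowest in both libraries and PAX6_Ta KO overlapped Control. COL25A1 fell by 3.01 on the log2 scale in PBX3_Cl KO (SE 0.83, adjusted p = 0.0412). This call was lost without Control replicate 1 (-2.05), PBX3_Cl KO replicate 1 (-2.42) or PBX3_Cl KO replicate 2 (-4.22), with upper-quartile scaling (-3.07) and with the median of 4q taken out (-2.85). Between the knockouts its 2.69 was not called, and 7 alternatives gave a call at 2.63 to 3.12, among them the replicate block (2.63, adjusted p = 0.0438 from edgeR).

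A further 18 genes, 14 of them collagens, had too few counts to be tested, and COL11A1, COL13A1 and COL22A1 had 0 counts in every library. The highest count of an untested gene in any library was 39, of COL24A1 in Control replicate 1, against 2 in Control replicate 2. All collagens together summed to 469 and 413 CPM in PAX6_Ta KO, 267 and 415 CPM in PBX3_Cl KO and 361 and 359 CPM in Control, ranges in which PBX3_Cl KO lay on both sides of Control. At 1 CPM or more were 13 to 15 of the 44 collagen genes in PAX6_Ta KO, 13 in PBX3_Cl KO and 9 to 11 in Control. The same count was not made over all genes. COL10A1 and COL9A3, which were not called, lay on both sides of 1 CPM between the replicates of every group.

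Collagen chains need hydroxylation, chaperones, trimming and crosslinking before they form fibres. Of 23 such genes, 21 were tested, and 4 were higher (19%) and 1 lower (4.76%) in PAX6_Ta KO, beside 7.21% and 4.21% of all tested genes. In PBX3_Cl KO, 2 were higher and 2 lower (9.52% each), beside 6.28% and 2.69%. Median log2 fold changes were -0.22 and 0.05. PLOD2, the lysyl hydroxylase for the ends of the chains, had 16.8 and 16.3 CPM in PAX6_Ta KO, 0.34 and 0.131 CPM in PBX3_Cl KO and 0.766 and 0.653 CPM in Control. Its log2 fold change was 4.53 in PAX6_Ta KO (SE 0.37, adjusted p = 7.04e-06) and -1.59 in PBX3_Cl KO (SE 0.42, adjusted p = 0.0347), and its 3 groups did not overlap. The lower call was lost without Control replicate 1 (-1.47) or PBX3_Cl KO replicate 2 (-1.05), with only these groups in the fit (-1.59) and with the arm median taken out (-1.50). COLGALT2, which adds galactose to hydroxylysine, was higher in both, at 2.35 and 1.41. PCOLCE, which speeds the removal of the C-propeptide, had a log2 fold change of -1.57 in PAX6_Ta KO (adjusted p = 0.00121).

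Of the integrin subunits (24 genes, 20 tested), 5 were higher in PAX6_Ta KO than in Control (25%, beside 7.21% of all tested genes), 3 in PBX3_Cl KO (15%, beside 6.28%) and 4 where the knockouts were compared directly (20%, beside 5.26%). By DESeq2 these counts were 5, 2 and 2, beside 7.65%, 6.69% and 5.7% of all tested genes. Under at least 1 alternative each, the calls of ITGAX, ITGB2 and ITGB8 in PAX6_Ta KO were lost. So were all 3 in PBX3_Cl KO and those of ITGAM, ITGB2 and ITGB8 between the knockouts. Lower calls were 0 in each of the 3 comparisons by edgeR and by DESeq2, with 0, 2 and 1 lower at an unadjusted p under 0.05, where 4.21%, 2.69% and 6.71% of all tested genes were called lower. The set leaves out the platelet pair, of which edgeR called ITGA2B lower in both knockouts and ITGB3 lower in PBX3_Cl KO, as given under other observations. The medians over the 20 subunits were 0.68 in PAX6_Ta KO, -0.02 in PBX3_Cl KO and 0.94 between the knockouts. All subunits together summed to 732 and 602 CPM in PAX6_Ta KO, 626 and 421 CPM in PBX3_Cl KO and 440 and 424 CPM in Control.

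Per length, ITGB1, ITGB5, ITGA5 and ITGAV stood above the other subunits of the set, which leaves out the platelet pair, in every group, the genes of the α5β1 fibronectin receptor and the αVβ5 vitronectin receptor. ITGAV (2q, chr2:187454737-187545628) had 158 and 149 CPM in PAX6_Ta KO, 75.8 and 52 CPM in PBX3_Cl KO and 65.4 and 65.8 CPM in Control. PAX6_Ta KO was above the other 4 libraries, and PBX3_Cl KO lay on both sides of Control. ITGAV was higher in PAX6_Ta KO than in Control by a log2 fold change of 1.23 (SE 0.21, 2.34-fold, adjusted p = 0.00225) and than in PBX3_Cl KO by 1.26 (SE 0.21, adjusted p = 0.00192), against -0.04 (SE 0.21) in PBX3_Cl KO. Its 9 tested neighbours within 1 Mb had a median of 0.91 in PAX6_Ta KO, 2 of them higher, against 0.00 for the whole of 2q, and -0.02 in PBX3_Cl KO. The part of the neighbourhood in the result was not tested.

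ITGA5 (12q, chr12:54789045-54813050) had 146 and 121 CPM in PAX6_Ta KO, 207 and 191 CPM in PBX3_Cl KO and 85.6 and 107 CPM in Control. Both knockouts were above Control, and PBX3_Cl KO was highest. ITGA5 was higher in PBX3_Cl KO by 1.05 (SE 0.20, 2.06-fold, adjusted p = 0.00595), a call lost without Control replicate 1 (0.90, adjusted p = 0.0862 from edgeR). In PAX6_Ta KO its 0.47 was not called, and between the knockouts its -0.58 was called only with the replicate block (-0.58, adjusted p = 0.0433 from edgeR). Of the β partners, ITGB1 (10p, chr10:33176201-33294720) had 157 and 139, 164 and 81.1, and 135 and 113 CPM in PAX6_Ta KO, PBX3_Cl KO and Control, and its groups overlapped. ITGB5 (3q, chr3:124480795-124620265) had 231 and 154, 155 and 71.2, and 119 and 111 CPM. Neither was called in any comparison. Without PBX3_Cl KO replicate 1, both passed between the knockouts, ITGB1 at 0.91 (adjusted p = 0.0224 from edgeR) and ITGB5 at 1.48 (adjusted p = 0.00831). ITGB5 also passed there with the replicate block (0.82, adjusted p = 0.0336 from edgeR), no filter on low counts (0.79) or without PAX6_Ta KO replicate 2 (1.03), and against Control in PAX6_Ta KO with no filter (0.76), with only these groups in the fit (0.75), or without PAX6_Ta KO replicate 2 (1.02), PBX3_Cl KO replicate 1 (0.75) or PBX3_Cl KO replicate 2 (0.74).

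ITGB8 (7p, chr7:20370325-20455377), the αV partner that activates TGF-β, had 15 and 16 counts in PAX6_Ta KO, 2 and 1 in PBX3_Cl KO and 3 and 0 in Control. PAX6_Ta KO was above all other libraries. Its ratio was 11.3 to Control (exact 95% interval 3.54 to 58, adjusted p = 0.0266 from edgeR) and 9.23 to PBX3_Cl KO (2.88 to 47.2, adjusted p = 0.0417 from edgeR). The median of 7p was 0.62 in PAX6_Ta KO, and with it taken out the call against Control was lost (log2 fold change 2.81, adjusted p = 0.0821). That call was also lost without Control replicate 2 (2.56), PAX6_Ta KO replicate 1 (3.39) or PAX6_Ta KO replicate 2 (3.43) and by DESeq2 (3.57). The call between the knockouts was lost without PAX6_Ta KO replicate 1 (3.09) or replicate 2 (3.14), without PBX3_Cl KO replicate 1 (3.71) or replicate 2 (2.69), with the median of 7p taken out (3.03), and by DESeq2 (3.22).

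**Figure D4:**
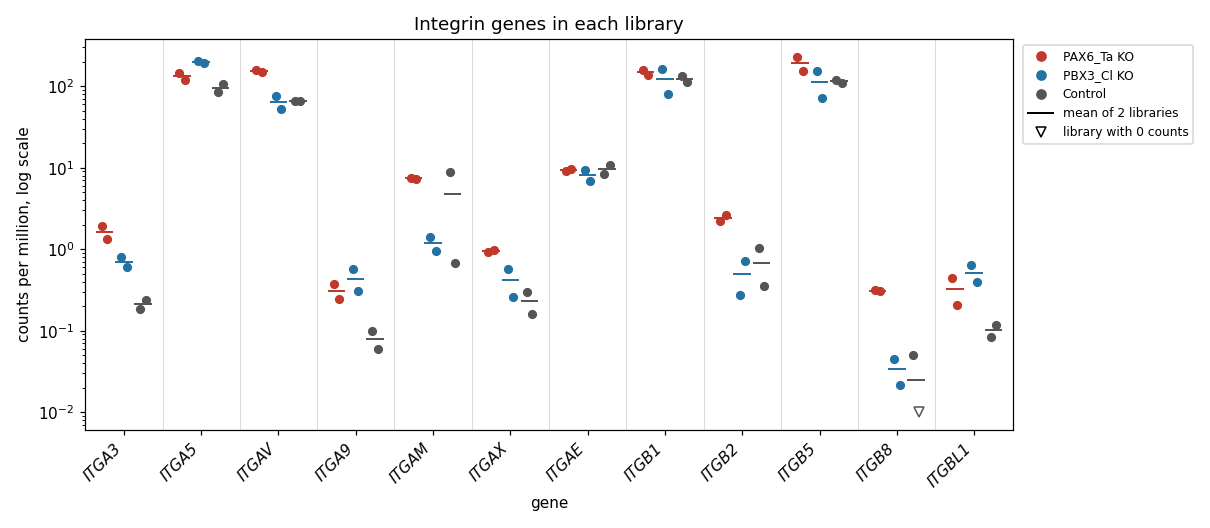
CPM on a log scale (y axis) of the called integrin genes and of ITGAE, ITGB1 and ITGB5 (x axis) in each library, with PAX6_Ta KO in red, PBX3_Cl KO in blue and Control in grey. Points are libraries, lines are means of 2 and the triangle is a library with 0 counts. ITGAV is at 158 and 149 CPM in PAX6_Ta KO, and the Control replicates of ITGAM lie apart at 8.94 and 0.673 CPM.

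All 3 laminin-binding α subunits were tested and ITGA3 was called in both knockouts. ITGA3 (17q, chr17:48133332-48167845), which pairs with β1 in epithelia, had 92 and 70 counts in PAX6_Ta KO, 35 and 28 in PBX3_Cl KO and 11 and 12 in Control. The groups did not overlap. It was higher by log2 fold changes of 2.94 (SE 0.48, adjusted p = 0.00135) in PAX6_Ta KO and 1.73 (SE 0.49, adjusted p = 0.0438) in PBX3_Cl KO. The call in PBX3_Cl KO was lost without Control replicate 1 (1.56) or 2 (1.92), PAX6_Ta KO replicate 1 (1.74) or 2 (1.73) or PBX3_Cl KO replicate 1, and with upper-quartile scaling (1.65), a filter of at least 1 CPM in 2 libraries (1.69) or only these groups in the fit (1.73). Between the knockouts ITGA3 was called with the replicate block (1.20, adjusted p = 0.0367 from edgeR). It lies 93.6 kb from COL1A1, and 40 tested neighbours within 1 Mb had medians of 0.05 and 0.02. ITGA7, the laminin receptor of muscle, was close to a call in PAX6_Ta KO (1.18, adjusted p = 0.0529) and passed under 8 alternatives, among them the replicate block (1.20, adjusted p = 0.0197 from edgeR) and DESeq2 (1.20, adjusted p = 0.0135).

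ITGA9 (3p, chr3:37493606-37864998), a receptor for tenascin and osteopontin, had 18 and 13 counts in PAX6_Ta KO, 25 and 14 in PBX3_Cl KO and 6 and 3 in Control. Both knockouts were above Control. It was called higher in PBX3_Cl KO at a log2 fold change of 2.39 (SE 0.66, adjusted p = 0.0406) and not in PAX6_Ta KO (1.91, adjusted p = 0.0981), where the replicate block gave 1.94 and an adjusted p of 0.0401 from edgeR. The PBX3_Cl KO call was lost without Control replicate 1 (2.83), Control replicate 2 (2.09), PAX6_Ta KO replicate 1 (2.40) or PBX3_Cl KO replicate 1 (1.85), with upper-quartile scaling (2.31) and by DESeq2 (2.44). ITGA4, which with β1 binds VCAM1 on marrow stroma, had 1 to 17 counts a library and was not called, while in PAX6_Ta KO it passed with the block (2.36, adjusted p = 0.0396 from edgeR). Of its 6 tested neighbours within 1 Mb, 5 were higher in PAX6_Ta KO, with a median log2 fold change of 1.13, and their part in its value was not tested. Of the collagen-binding α subunits, 2 of 4 were tested, ITGA2 and ITGA10, with 5 to 49 counts a library. ITGA10 passed between the knockouts with the block (1.26, adjusted p = 0.0474 from edgeR), and ITGA1 and ITGA11 had at most 6 counts in a library.

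Among the leukocyte subunits, ITGAX (16p, chr16:31366455-31394320), the αX chain of dendritic and myeloid cells, had 44 and 51 counts in PAX6_Ta KO, 25 and 12 in PBX3_Cl KO and 18 and 8 in Control. PAX6_Ta KO was highest and the other groups overlapped. ITGAX was higher in PAX6_Ta KO than in Control by 2.01 (SE 0.54, adjusted p = 0.0303), a call lost without Control replicate 2 (1.64), PAX6_Ta KO replicate 1 (2.05) or PAX6_Ta KO replicate 2 (1.98). ITGB2 (21q, chr21:46305868-46351904), the shared β2 chain, had 106 and 137 counts in PAX6_Ta KO, 12 and 33 in PBX3_Cl KO and 61 and 18 in Control. It was higher in PAX6_Ta KO than in Control by 1.79 (SE 0.54, adjusted p = 0.0499) and than in PBX3_Cl KO by 2.27 (SE 0.56, adjusted p = 0.0192). The call against Control was lost without Control replicate 2 (1.23), PAX6_Ta KO replicate 1 (1.90) or PAX6_Ta KO replicate 2 (1.67), with upper-quartile scaling (1.83), the filter of at least 1 CPM (1.81) and the median of 21q taken out (1.80). That between the knockouts was lost without PBX3_Cl KO replicate 1 (1.77).

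ITGAM (16p, chr16:31271288-31344213), the αM chain of the complement receptor of granulocytes and macrophages, had 361 and 381 counts in PAX6_Ta KO, 63 and 43 in PBX3_Cl KO and 537 and 34 in Control. The Control replicates enclosed all 4 knockout libraries. With all libraries in, ITGAM was called between the knockouts alone, higher in PAX6_Ta KO by 2.64 (SE 0.79, adjusted p = 0.0477), a call lost without PBX3_Cl KO replicate 1 (3.01) or replicate 2 (2.36), with upper-quartile scaling (2.75), with the filter of at least 1 CPM (2.69) and by DESeq2 (2.66). Without Control replicate 1 it was higher in PAX6_Ta KO than in Control (3.45, adjusted p = 2.65e-06 from edgeR), and without Control replicate 2 it was lower in PBX3_Cl KO than in Control (-2.92, adjusted p = 5.15e-08 from edgeR). The lower value in PBX3_Cl KO was also called without either PAX6_Ta KO replicate (-2.03 each) and with no filter on low counts (-2.06). Control replicate 1 was also the library with the most megakaryocyte marker counts, and the part of that difference was not tested. ITGAE (17p, chr17:3617922-3704482), the αE chain of mucosal T cells, had 6.96 to 10.7 CPM in the 6 libraries and was not called, and it overlaps HASPIN on the other strand.

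The 5 genes with an integrin name that encode no subunit were all tested. ITGBL1 (13q, chr13:102104944-102373206), a secreted protein with repeats like those of β subunits, had 21 and 11 counts in PAX6_Ta KO, 28 and 18 in PBX3_Cl KO and 5 and 6 in Control. Both knockouts were above Control, and it was called in PBX3_Cl KO at 2.33 (SE 0.64, adjusted p = 0.0404) but not in PAX6_Ta KO at 1.66. This call was lost without Control replicate 1 (2.09), Control replicate 2 (2.59) or PBX3_Cl KO replicate 1 (1.91), with upper-quartile scaling (2.24) and by DESeq2 (2.36). ITGB1BP1, which binds the tail of β1 and holds it inactive, missed a call between the knockouts (-0.72, adjusted p = 0.0504) and passed with the block (-0.71, adjusted p = 0.0265 from edgeR), with no filter on low counts (-0.69), and without either Control replicate (-0.73 each) or PBX3_Cl KO replicate 2 (-0.98). ITGB3BP, a centromere protein, and ITGB1BP2, a muscle chaperone, were not called, nor was ITGB1P1, a processed pseudogene that may share reads with ITGB1.

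Inside the cell, talin, kindlin and other adaptors switch integrins on. Of 22 such genes, 18 were tested, and PAX6_Ta KO had 3 of them higher (16.7%) and 1 lower (5.56%), beside 7.21% and 4.21% of all tested genes, with a median of 0.23. In PBX3_Cl KO, 2 were higher (11.1%, beside 6.28%) and 0 lower by edgeR (also 0 by DESeq2, and 0 at an unadjusted p under 0.05, beside 2.69% called of all tested genes), with a median of 0.18. FERMT3, the kindlin of blood cells, had 162 and 137 CPM in PAX6_Ta KO, 450 and 469 CPM in PBX3_Cl KO and 281 and 227 CPM in Control. It fell by 0.77 on the log2 scale in PAX6_Ta KO and was higher by 0.86 in PBX3_Cl KO, with no overlap between groups. The call in PAX6_Ta KO was lost without any one of the Control or PAX6_Ta KO replicates (-0.60 to -0.92) and with RLE size factors (-0.74), and that in PBX3_Cl KO without Control replicate 1 (1.02) or 2 (0.70). APBB1IP, which brings talin to integrins, was higher in PAX6_Ta KO by 2.63, a call lost without Control replicate 2 (2.00). SRC, a kinase of adhesion sites, was higher in both, by 1.88 and 1.33.

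Other matrix ligands of integrins were tested in 16 of 23 cases, with 5 higher (31.2%) and 2 lower (12.5%) in PAX6_Ta KO and 3 higher (18.8%) and 4 lower (25%) in PBX3_Cl KO, beside 7.21% and 4.21%, and 6.28% and 2.69%, of all tested genes. TNC, the tenascin that ITGA9 binds, had 0.0208 and 0.057 CPM in PAX6_Ta KO, 0.0227 and 0 CPM in PBX3_Cl KO and 9.98 and 3.62 CPM in Control, and was called lower in both. LAMC1, the γ1 chain of most laminins, had 6.83 and 3.74 CPM in PAX6_Ta KO, 1.02 and 0.808 CPM in PBX3_Cl KO and 0.233 and 0.317 CPM in Control and was higher in both, by 4.26 and 1.73. The call in PBX3_Cl KO was lost without Control replicate 1 (1.52) or PBX3_Cl KO replicate 1 (1.52), with upper-quartile scaling (1.65) and with only these groups in the fit (1.73). LAMB1, the β1 chain of laminin, named after its values were seen, had 94.6 and 93 CPM in PAX6_Ta KO, 4.88 and 6.05 CPM in PBX3_Cl KO and 41.6 and 41.3 CPM in Control. It was higher in PAX6_Ta KO by 1.18 and fell by 2.92 in PBX3_Cl KO. Of the counter-receptors of leukocyte integrins (9 genes, 6 tested), ICAM1 fell by 0.70 in PAX6_Ta KO by edgeR, a call lost by DESeq2 (-0.68, adjusted p = 0.0555), with RLE size factors (-0.68), with no filter on low counts (-0.69) and without any one of the Control or PAX6_Ta KO replicates (-0.60 to -0.81). By edgeR ICAM1 was thus 1 of the 6 lower in PAX6_Ta KO (16.7%), beside 4.21% of all tested genes. By DESeq2 0 of the 6 were lower in PAX6_Ta KO and 1, MADCAM1, was higher (1.31, adjusted p = 0.0436). DESeq2 called 4.38% of all tested genes lower and 7.65% higher there. Of the other collagen receptors (6 genes, 5 tested), GP6, the collagen receptor of platelets, fell by 1.36 in PBX3_Cl KO.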

How the data were processed

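RNA was extracted with the ISOLATE II RNA Mini Kit, and stranded libraries (Invitrogen Collibri) were sequenced on a NovaSeq. Per the labels and the study's methods, the authors trimmed reads with Cutadapt 3.4, aligned them to GRCh37 with STAR and deposited whole-number read counts per gene, not normalized. The STAR version and the strand setting of the counting were not given in the sources used here, so reads of overlapping or antisense genes (LMBRD1 at COL19A1, HASPIN at ITGAE, ITGB8-AS1, ITGB2-AS1, ITGA9-AS1, the antisense genes at COL4A2, SLC19A1 at COL18A1, FGF14 at ITGBL1) may be shared. The authors' own comparison tables (log2 fold changes, errors, p-values and a pooled mean) were not used, nor were 4 count columns that match no sample label.

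Counts of the 6 libraries were fitted together with edgeR 4.0.16 (R 4.3.3; TMM, filterByExpr, quasi-likelihood test), with Benjamini-Hochberg adjustment over 20746 genes and a threshold of 0.05. The biological coefficient of variation was 0.215. Replicate libraries were distinct beyond counting noise, the chi-square divided by its degrees of freedom being 38.8 in PAX6_Ta KO, 121 in PBX3_Cl KO and 47.1 in Control. On simulated data for PAX6_Ta KO against Control (20746 genes), 32% of genes changed 2-fold and 100% of those changed 4-fold, 8-fold or 16-fold were recovered, with 9 false calls. Levels per length used the canonical transcript of GENCODE lifted to GRCh37, to which 49922 entries matched by symbol, 1596 by identifier and 570 by neither. Ratios at 1 to 3 counts have exact 95% intervals, and a group at 0 was set to 3 counts.

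Groups share replicate numbers, which the labels do not explain. Deviations of same-numbered libraries correlated at 0.491 (PAX6_Ta KO and Control), 0.257 (PBX3_Cl KO and Control) and 0.466 (PAX6_Ta KO and PBX3_Cl KO), so the numbers were taken to pair the libraries and the replicate block was fitted as an alternative. The other alternatives were RLE and upper-quartile scaling, DESeq2 1.42.0, no filter, a filter of 1 CPM in 2 libraries, only the compared groups, each library left out, and the median of the chromosome arm taken out.

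The genes and lists were chosen with earlier results of these data known. Named are all genes called in any comparison, the 3 collagens and 3 integrins of highest mean CPM among those not called, and at most 3 called genes of each partner list. Other genes were named after their values were seen.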

Additional observations from a re-analysis of the deposited data

Results flagged for a closer look

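The direct test between the knockouts, PAX6_Ta KO minus PBX3_Cl KO on the log2 scale, was called for 12 collagen and integrin genes. The positive values, PAX6_Ta KO being higher, were those of COL4A2 at 3.78, COL1A1 at 3.68, COL1A2 at 3.56, COL14A1 at 3.07, ITGAV at 1.26, ITGB2 at 2.27, ITGAM at 2.64 and ITGB8 at 3.11. The negative values, PAX6_Ta KO being lower, were those of COL21A1 at -7.90, where PAX6_Ta KO had 0 counts so that the fitted value is no bound, COL5A1 at -7.56, COL4A5 at -4.46 and COL4A6 at -1.81. Against Control, COL4A2 and COL4A5 were called in opposite directions in the knockouts. The calls of COL4A6, ITGAM, ITGB2 and ITGB8 were each lost when 1 knockout library was left out.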

How the results depend on the processing

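Of the calls, 10 of 13 in PAX6_Ta KO against Control, 8 of 15 in PBX3_Cl KO against Control and 8 of 12 between the knockouts were kept under every alternative that tested the gene. Among them, COL19A1 in PAX6_Ta KO, COL3A1 in PBX3_Cl KO and COL21A1 between the knockouts went untested with the filter of at least 1 CPM. With each library left out, counts of higher and lower genes ranged from 7 to 14 and stayed at 3 in PAX6_Ta KO, from 7 to 11 (7 without Control replicate 1) and 2 to 5 (2 without PBX3_Cl KO replicate 1) in PBX3_Cl KO, and from 7 to 12 and 3 to 5 between the knockouts. The shares of all tested genes called also differed between these settings. In PAX6_Ta KO the share called higher was smallest where 7 collagen and integrin genes were higher and largest where 14 were. The share called lower differed there too, while the count stayed at 3. In the other comparisons the higher counts did not follow the shares in this way. Whether the ranges are particular to this set was not tested. The filter of at least 1 CPM tests 32 of the collagen and integrin genes. It gave 6 higher and 2 lower in PBX3_Cl KO, beside 6.35% and 3.1% of all tested genes, and 2 lower between the knockouts, beside 7.44%. No filter, which tests 70 of them, gave 14 higher between the knockouts, beside 4.43%. With the replicate block, counts were 14 and 3 in PAX6_Ta KO, where 9.78% and 7.33% of all tested genes were called higher and lower. They were 11 and 4 in PBX3_Cl KO, beside 9.26% and 4.22%, and 14 and 7 between the knockouts, beside 8.06% and 10.6%. Among the collagen and integrin genes of the set, the pairing changed no call beside those given in the report. Outside the set it gave further calls. Among them were ITGA2B between the knockouts (-1.50, adjusted p = 0.00739 from edgeR) and ICAM1 in PBX3_Cl KO (0.63, adjusted p = 0.0412 from edgeR). The median between the knockouts, 0.35, was 0.43 to 0.70 under upper-quartile scaling, both filters, only the compared groups and the arm median.

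Values that changed sign were not called in the full fit, and the cause was not tested. With libraries left out, PAX6_Ta KO against Control ranged from -4.02 to 0 for COL21A1, -0.91 to 0.64 for COL25A1, -0.29 to 3.45 for ITGAM, -0.004 to 0.121 for COL6A5 and -0.20 to 0.15 for ITGAE. PBX3_Cl KO against Control ranged from -2.92 to 0.81 for ITGAM, -0.38 to 0.21 for ITGAV, -1.34 to 0.48 for ITGB2, -0.55 to 3.80 for ITGB8, -0.033 to 0.071 for COL6A5, -0.58 to 0.58 for COL7A1, -0.73 to 0.44 for ITGB5 and -0.65 to 0.41 for ITGB1. PAX6_Ta KO against PBX3_Cl KO ranged from -0.88 to 0.059 for ITGA9, -0.023 to 0.104 for COL6A5, -0.16 to 0.91 for ITGB1 and -0.029 to 0.461 for ITGAE. With the arm median taken out, COL25A1 was 0.15 in PAX6_Ta KO, ITGAV 0.034, ITGB8 -0.22, ITGB5 0.08 and ITGB1 0.052 in PBX3_Cl KO, and COL6A5 -0.089 between the knockouts. COL6A5 in PBX3_Cl KO was -0.058 with upper-quartile scaling and -0.021 with the filter of at least 1 CPM. Low counts limit COL19A1, COL21A1, COL25A1, ITGA9, ITGB8 and ITGBL1.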

Other observations

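The platelet pair, left out of the set, also differed. ITGA2B, the αIIb chain, had 195 and 131 counts in PAX6_Ta KO, 487 and 329 in PBX3_Cl KO and 3232 and 826 in Control, and fell by 3.42 on the log2 scale in PAX6_Ta KO (adjusted p = 0.000525 from edgeR) and by 1.95 in PBX3_Cl KO (adjusted p = 0.0167). ITGB3, the β3 chain, had 269 and 181 counts in PAX6_Ta KO, 69 and 51 in PBX3_Cl KO and 360 and 122 in Control, and fell by 1.65 in PBX3_Cl KO (adjusted p = 0.0383 from edgeR). By DESeq2 1 of the 2 was called lower in PBX3_Cl KO, ITGA2B not being called (-1.95, adjusted p = 0.0819). Without Control replicate 1 neither was called lower in PBX3_Cl KO, with ITGA2B at -0.84 and ITGB3 at -0.85, and without PBX3_Cl KO replicate 2 neither was, at -1.67 and -1.43, nor was ITGB3 without PBX3_Cl KO replicate 1 (-1.96). The Control replicates were far apart for other megakaryocyte genes too: PPBP, the platelet basic protein, had 1381 and 69 counts, GP9 77 and 3 and VWF 79 and 2.

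Among the untested collagens, COL28A1 had 14 and 5 counts in PAX6_Ta KO, 3 and 2 in PBX3_Cl KO and 0 and 1 in Control. The ratio of PAX6_Ta KO to Control was 20.9 (exact 95% interval 3.32 to 867).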
